A study of Homo sapiens with 2 samples.

Results

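The 36 genes described here encode the enzymes and carriers that take glucose to pyruvate and lactate, the subunits and kinases of pyruvate dehydrogenase, and enzymes of the pentose phosphate pathway. They were selected from the RNA-seq tables of 57485 genes by name, with the FPKM values and the log2 ratios of the same libraries in view, so their ratios are a description and no test was made on them. FPKM is the number of fragments set against the length of the transcript and the number of fragments in the library, so it can be compared between genes. The data were 2 libraries of cells of the human multiple myeloma (MM) line ARP1, which carried a lentiviral shRNA against SRD5A1 under a doxycycline (Dox)-inducible promoter in the TRIPZ vector. One library was from untreated cells and the other from cells given Dox, so Dox and the hairpin it induces cannot be told apart, and cells with Dox but no hairpin were not analysed here. The genotype label of the library with Dox names SRD5A2, although its title names SRD5A1. The dose and time of Dox for these libraries are not given in the sources used here.

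Each condition had 1 library, so no difference below has a replicate check and no p-value is given. The expected counts summed to 45918570 without Dox and 48728927 with Dox. SRD5A1, the targeted gene, was listed at 13.04 FPKM without Dox and 25.88 FPKM with Dox, which is higher in the library labelled as its knockdown (log2 ratio 0.98), and every direction below rests on the labels. Of 15 markers of plasma cells and the B lineage 13 were tested, and 8 of these had a ratio below 0, beside 41.5% of all tested genes. Of the 13, 3 were more than 2-fold higher (SLAMF7, FCRL5 and TNFRSF17), where 17.0% of all tested genes were. More than 2-fold lower were 0, where 6.41% of all tested genes were. FCRL5 reached 1 FPKM only with Dox. The FPKM of the 15 markers summed to 7885.09 without Dox and 5856.36 with Dox. The plasma cell regulators IRF4 and XBP1 were at 409.73 and 513.92 FPKM and at 834.39 and 715.87 FPKM. The 5 T cell markers summed to 2.24 and 3.09 FPKM, most of it TRAC, with CD3D, CD3G and CD2 listed at 0 in both. The 5 myeloid markers summed to 1.99 and 1.62 FPKM, and the 6 epithelial and stromal markers to 8.86 and 4.54 FPKM, of which KRT18 gave 6.0 and 1.44 FPKM. The part of these marker differences in the results below was not tested.

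Glycolysis breaks glucose down to pyruvate in the cytosol and yields ATP and NADH. Pyruvate is then either reduced to lactate, which restores NAD+ and leaves the cell, or moved into mitochondria, where the pyruvate dehydrogenase complex turns it into acetyl-CoA unless its kinases switch the complex off. The pentose phosphate pathway branches off at glucose 6-phosphate and supplies NADPH and ribose. Tumour cells commonly run a high rate of glycolysis to lactate even where oxygen is present.

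Most of these genes were lower in the library labelled with Dox. For each log2 ratio (Dox over no Dox) 0.1 was added to both FPKM values, so the ratios of low genes are smaller than the true ones. A gene was tested, in the sense that its ratio was counted, where it reached 1 FPKM in at least 1 library. Of the 36 genes 35 were tested, and PFKP was the exception. Of these, 32 had a log2 ratio below 0, beside 41.5% of the 14859 genes tested in the whole table. More than 2-fold lower were 11 of the 35 (HK1, HK2, GPI, ALDOA, ALDOC, TPI1, PGAM1, PKM, SLC16A3, PFKFB4 and TKT), where 6.41% of all tested genes were. For 8 of the 11 the whole counting interval lay past 2-fold, and HK1, HK2 and SLC16A3 were the others. PFKFB4, among the 8, reached 1 FPKM only without Dox, the library where it was higher. With at least 5 FPKM required, which left it out, 10 of 32 genes were more than 2-fold lower, beside 5.75% of all genes so tested. None of the 35 was more than 2-fold higher, where 17.0% of all tested genes were. The median log2 ratio of the 35 genes was -0.73 and that of all tested genes 0.15. Together the 36 genes took 1.99% of all counts without Dox (exact binomial interval 1.98% to 1.99%) and 1.13% with Dox (1.13% to 1.14%). The intervals given here are exact 95% intervals of the counts and cover counting error only. In these bulk samples, fewer cells with a transcript and less of it per cell cannot be told apart.

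The scaling of the libraries moved these counts. Among all tested genes 72.6% of those past 2-fold were higher with Dox. This share was 56.0% with edgeR's TMM factors, 55.2% with DESeq2's size factors and 60.4% when the ratios were centred on their median. With these scalings 16, 16 and 12 of the 35 genes were more than 2-fold lower, beside 10.3%, 10.5% and 9.18% of all tested genes. Of the 35 genes 33 lay below 0 with each. TPM moved the counts the other way, to 6 of 35 genes more than 2-fold lower, beside 5.26% of all tested genes. With TPM 78.4% of all changed genes were higher. Of the 35 genes 33 lay below the median of all tested genes with FPKM, and 31 with counts scaled to the library total, which take no account of length. TPM, TMM factors, size factors and centring shift the ratios of all genes nearly alike. They could thus not change the gap between these genes and the table. The median of the 35 genes lay 0.83 to 0.91 below that of all tested genes over every setting tried. Only the pseudocount, the filter and the counts without length could move this gap. GPI, ALDOA, ALDOC, TPI1 and PGAM1 were more than 2-fold lower in all settings.

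**Figure D1:**
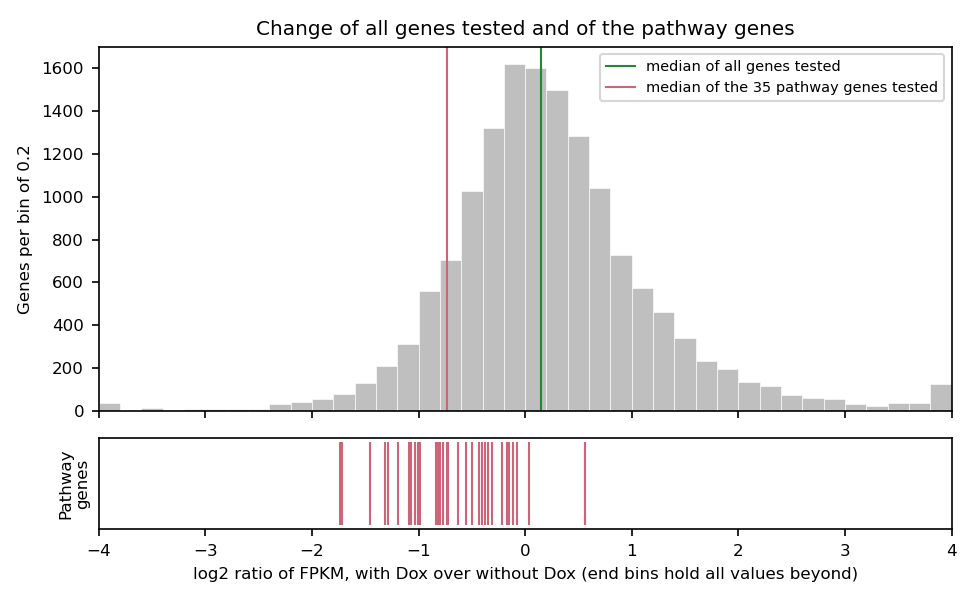
The upper panel counts all 14859 genes tested by their log2 ratio of FPKM with Dox over without Dox, and the lower panel has a line at the ratio of each of the 35 pathway genes tested. The pathway genes sit mostly left of 0, with a median of -0.73 beside 0.15 for all genes.

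The level of these genes spanned several orders of magnitude, and the abundant ones were lower too. Among the 13 genes with a mean of at least 100 FPKM over both libraries, all had a ratio below 0, where 62.0% of the 1104 tested genes at that level had one. Of the 13 genes 6 were more than 2-fold lower, where 7.25% of the genes at that level were. Among the other 22 tested genes 19 were below 0 and 5 were more than 2-fold lower, and the medians of these sets were -0.82 and -0.59. GAPDH was the highest of the 36 in both libraries, and among all genes in the table it ranked 11 without Dox and 32 with Dox.

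**Figure D2:**
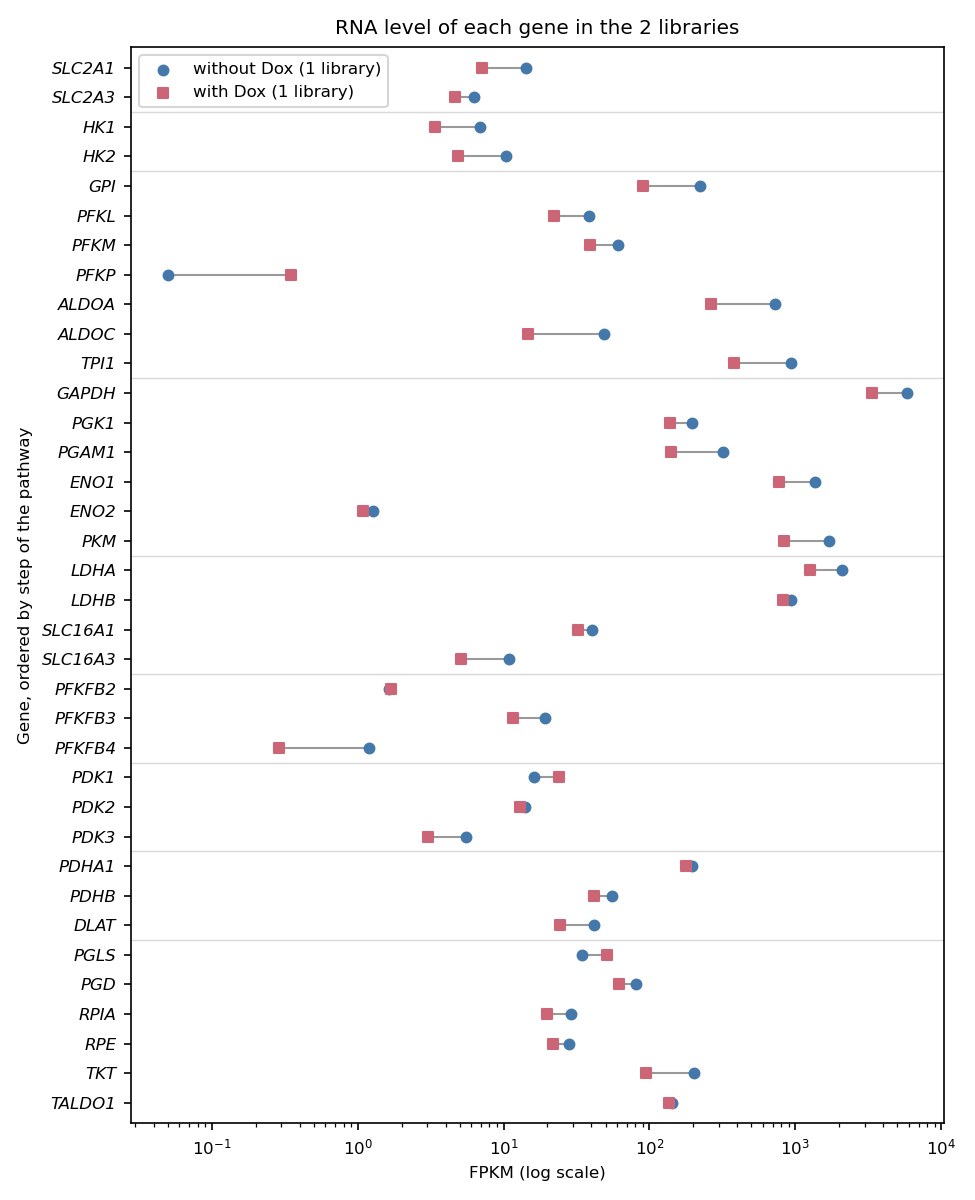
FPKM of each of the 36 genes on a log scale, with the library without Dox as circles and the library with Dox as squares, 1 library each, and genes ordered by step. The squares lie left of the circles for most genes, and right of them for PFKP, PFKFB2, PDK1 and PGLS.

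Glucose enters the cell through the transporters GLUT1, the product of SLC2A1, and GLUT3, the product of SLC2A3. SLC2A1 was listed at 14.23 FPKM without Dox and 7.14 FPKM with Dox, a log2 ratio of -0.98 (interval -1.13 to -0.85) just short of 2-fold. SLC2A3 was listed at 6.27 and 4.62 FPKM (-0.43). The share of SLC2A1 in the FPKM of these transporters was accordingly 69.4% without Dox and 60.7% with Dox, and the counting intervals of these shares did not overlap. SLC2A14, a close copy of SLC2A3, was listed at 0 in both, so reads that fit both genes may have been assigned to SLC2A3.

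Hexokinase traps glucose as glucose 6-phosphate. HK1 was listed at 6.90 and 3.38 FPKM and HK2, the inducible form found in many tumours, at 10.44 and 4.86 FPKM. Both were lower by nearly the same factor, with log2 ratios of -1.01 and -1.09, and the share of HK2 was 60.2% and 59.0%. The counting intervals of both ratios, -1.16 to -0.86 and -1.18 to -0.99, included the 2-fold line. ADPGK, an ADP-dependent glucokinase outside the 36 genes and named after its values were seen, was listed at 115.38 and 114.60 FPKM. Per length its RNA was thus more abundant than those of HK1 and HK2, and its log2 ratio was -0.01.

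The upper part of glycolysis, where the sugar phosphate is rearranged and split, had a median log2 ratio of -1.30 over its 6 tested genes. More than 2-fold lower were 4 of them, where 6.41% of all tested genes were. GPI, which converts glucose 6-phosphate to fructose 6-phosphate, was listed at 220.99 FPKM without Dox and 90.32 FPKM with Dox (log2 ratio -1.29). TPI1, which interconverts the triose phosphates, was listed at 939.39 and 377.76 FPKM (-1.31). Both lay past 2-fold by more than their counting error. Phosphofructokinase, the main point of control, is built from 3 kinds of subunit. Its PFKL subunit was listed at 38.57 and 22.20 FPKM (-0.79) and its PFKM subunit at 60.81 and 39.34 FPKM (-0.63), so neither reached 2-fold. PFKP stayed under 1 FPKM, with 4 counts without Dox and 35 with Dox, and made up 0.050% and 0.57% of the FPKM of the step.

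Aldolase splits fructose 1,6-bisphosphate, and both of its genes in this set were far lower with Dox. ALDOA (ENSG00000149925.18, chromosome 16 from 30064164 to 30070457 on GRCh38) was listed at 731.05 FPKM without Dox and 265.89 FPKM with Dox, which is 2.75-fold lower (log2 ratio -1.46, interval -1.49 to -1.43). ALDOC (ENSG00000109107.13, chromosome 17 from 28573115 to 28577264) was listed at 48.98 and 14.81 FPKM, 3.29-fold lower (-1.72, interval -1.84 to -1.60). ALDOA gave 93.7% of the aldolase FPKM without Dox and 94.7% with Dox. The 250 bases before the start of each gene, from RefSeq on GRCh38.p14, are printed because ALDOC had the lowest ratio of the 36 genes after PFKFB4 and ALDOA is its isozyme. They lie at chr16:30064029-30064278 on the forward strand, the most upstream of 3 starts listed for ALDOA, and at chr17:28576896-28577145 on the reverse strand. These starts are those of RefSeq, and the gene spans of GENCODE reach further upstream, so the windows of ALDOA, ALDOC and, below, LDHA, LDHB and PFKFB4 overlap or lie within the spans given. Capitals mark ACGTG on either strand, a form of the core of the hypoxia response element. Other forms of this core were not searched for.
ALDOA: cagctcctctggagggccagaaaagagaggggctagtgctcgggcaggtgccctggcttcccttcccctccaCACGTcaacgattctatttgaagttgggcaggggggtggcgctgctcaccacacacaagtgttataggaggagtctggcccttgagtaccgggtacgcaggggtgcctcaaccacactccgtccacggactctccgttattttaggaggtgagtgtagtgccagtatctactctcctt
ALDOC: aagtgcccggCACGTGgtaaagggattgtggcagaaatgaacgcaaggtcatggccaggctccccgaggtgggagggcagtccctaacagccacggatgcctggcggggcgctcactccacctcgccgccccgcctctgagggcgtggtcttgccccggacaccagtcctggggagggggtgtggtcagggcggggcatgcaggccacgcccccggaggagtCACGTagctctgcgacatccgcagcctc
The ALDOC promoter holds ACGTG at 2 places, 1 of them within CACGTG, the E-box that MYC and MondoA bind, and the ALDOA window printed here at 1 place. The windows before the other starts of ALDOA hold ACGTG at 1 place each, in 1 of them within CACGTG.

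In the lower part of glycolysis, which recovers ATP and NADH, all 6 genes had ratios below 0, beside 41.5% of all tested genes. More than 2-fold lower were 2 of them, where 6.41% of all tested genes were. GAPDH (ENSG00000111640.14, chromosome 12 from 6533927 to 6538374), which oxidises glyceraldehyde 3-phosphate and often serves as a reference gene, was listed at 5799.32 FPKM without Dox and 3340.11 FPKM with Dox (log2 ratio -0.80). PGK1, which makes the first ATP of this part, was listed at 195.74 and 138.42 FPKM (-0.50). PGAM1, which shifts the phosphate group, was listed at 320.04 and 139.58 FPKM (-1.20). PGAM1 thus lay past 2-fold while its neighbours in the pathway did not. ENO1, the main enolase, was listed at 1355.25 and 768.58 FPKM (-0.82). ENO2, the neuronal enolase, stayed near 1 FPKM, at 1.27 and 1.08, with 105 and 92 counts and a counting interval of its ratio from -0.64 to 0.20. ENO3, the muscle enolase, is outside the 36 genes and was named after its values were seen, at 57.35 and 53.56 FPKM (-0.10). PKM, pyruvate kinase, was listed at 1702.55 and 831.92 FPKM (-1.03). The tables give 1 value for PKM, so its M1 and M2 forms cannot be told apart. Its mean transcript length, 2241.22 and 2239.03 bases, was nearly the same in both libraries, which does not show the share of these forms.

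At the step from pyruvate to lactate the isozymes differed. LDHA (ENSG00000134333.13, chromosome 11 from 18394388 to 18408425), whose product favours the reduction of pyruvate, was listed at 2096.45 FPKM without Dox and 1261.49 FPKM with Dox (log2 ratio -0.73, interval -0.75 to -0.72). LDHB (ENSG00000111716.12, chromosome 12 from 21635342 to 21757857), whose product favours the reverse reaction, was listed at 928.89 and 823.95 FPKM (-0.17, interval -0.19 to -0.15). The ratio of LDHA to LDHB, which does not depend on the scaling of a library, was 2.26 without Dox and 1.53 with Dox. By level LDHB ranked 6 among the 36 genes without Dox and 4 with Dox. The 250 bases before their starts are printed because the isozymes differed by more than their counting error, a choice made after the values were seen. They lie at chr11:18394313-18394562 on the forward strand, the more upstream of 2 starts listed for LDHA, and at chr12:21657843-21658092 on the reverse strand, with the same use of capitals.
LDHA: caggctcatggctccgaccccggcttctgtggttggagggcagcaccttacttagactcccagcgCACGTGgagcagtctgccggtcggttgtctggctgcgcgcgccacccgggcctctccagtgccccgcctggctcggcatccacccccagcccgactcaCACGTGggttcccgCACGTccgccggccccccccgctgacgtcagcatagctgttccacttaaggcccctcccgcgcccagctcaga
LDHB: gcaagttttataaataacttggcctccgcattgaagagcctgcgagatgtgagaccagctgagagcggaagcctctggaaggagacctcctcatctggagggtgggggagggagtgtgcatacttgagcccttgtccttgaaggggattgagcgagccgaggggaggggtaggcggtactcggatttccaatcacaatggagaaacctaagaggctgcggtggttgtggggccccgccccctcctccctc
The LDHA promoter holds ACGTG at 3 places, 2 of them within CACGTG, and the LDHB promoter at 0. The window before the other start of LDHA also holds it at 0 places.

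Lactate leaves the cell through monocarboxylate transporters. SLC16A1, which encodes MCT1, was listed at 40.18 and 32.37 FPKM (log2 ratio -0.31). SLC16A3, which encodes the export carrier MCT4, was listed at 10.87 and 5.13 FPKM (-1.07, interval -1.26 to -0.88). The share of SLC16A3 in the FPKM of these carriers was 21.3% without Dox and 13.7% with Dox, and the counting intervals of the shares did not overlap. Its exons share 482 bases with CSNK1D on the opposite strand, which had 5597 and 4504 counts. The use of strand in counting is not given in the sources used here, so reads of the shared bases could belong to either gene.

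The PFKFB enzymes make and remove fructose 2,6-bisphosphate, the strongest activator of phosphofructokinase, and their tested genes differed by 1.78 on the log2 scale, more than those of the other steps with several genes. PFKFB3, whose product mostly makes the activator, was listed at 19.36 FPKM without Dox and 11.69 FPKM with Dox (log2 ratio -0.72). PFKFB4 was listed at 1.20 and 0.29 FPKM, with 113 and 37 counts (-1.74, interval -2.31 to -1.19), and passed the filter only through the library without Dox. With a pseudocount of 1 FPKM PFKFB4 had a log2 ratio of -0.77, within 2-fold, and the genes of this step then differed less than PDK1 (0.53) and PDK3 (-0.69). PFKFB2 was listed at 1.65 and 1.70 FPKM (0.04, interval -0.14 to 0.22). PFKFB3 thus supplied most of the step in both libraries, 87.2% and 85.5% of its FPKM, and PFKFB2 and PFKFB4 were low. Of PFKFB3 and PFKFB4, the 250 bases before the start are printed because this step held the largest difference between isozymes at the pseudocount of 0.1. They lie at chr10:6144671-6144920 on the forward strand, the more upstream of 2 starts listed for PFKFB3, and at chr3:48556804-48557053 on the reverse strand.
PFKFB3: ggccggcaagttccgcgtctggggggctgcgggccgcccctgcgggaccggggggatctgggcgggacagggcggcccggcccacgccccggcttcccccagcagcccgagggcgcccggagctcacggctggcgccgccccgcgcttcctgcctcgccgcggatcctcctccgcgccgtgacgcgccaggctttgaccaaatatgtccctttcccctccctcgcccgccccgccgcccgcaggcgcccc
PFKFB4: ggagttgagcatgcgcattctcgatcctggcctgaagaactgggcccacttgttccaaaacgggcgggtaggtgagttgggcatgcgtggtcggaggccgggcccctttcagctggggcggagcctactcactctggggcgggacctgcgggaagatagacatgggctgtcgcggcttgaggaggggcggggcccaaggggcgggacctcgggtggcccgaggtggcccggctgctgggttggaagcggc
Neither window holds ACGTG, so they have no capitals, and other forms of the hypoxia core were not searched for. The 250 bases before the other start of PFKFB3 hold CACGTG at 1 place.

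Of the 36 genes 33 were matched by symbol in the RefSeq table, with 61 starts in all. ACGTG was in the 250 bases before 22 of these starts (36.1%), beside 18.5% of all 35116 starts and 22.8% of the starts of tested genes. CACGTG, which contains ACGTG, was before 8 starts (13.1%), beside 6.34% of all starts and 8.4% of the starts of tested genes. Among the genes more than 2-fold lower 9 of 25 starts had ACGTG, and among the tested genes within 2-fold 12 of 32 had it. The share was thus much the same in both sets. TGATGNAA, the composite element of ATF4 and C/EBP, was before 2 starts, both of HK1, or 3.28%, beside 3.14% of all starts and 1.69% of the starts of tested genes. These are matches of letters, not sites shown to be bound, and other forms of the hypoxia core were not counted.

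Pyruvate enters the mitochondrial pathway through the pyruvate dehydrogenase complex, which 4 kinases inhibit. PDK1 (ENSG00000152256.13, chromosome 2 from 172555373 to 172608669) was listed at 16.18 FPKM without Dox and 23.88 FPKM with Dox, a log2 ratio of 0.56 (interval 0.49 to 0.63). PDK3 was listed at 5.52 and 3.04 FPKM, with 419 and 236 counts (-0.84, interval -1.08 to -0.61). PDK2 was listed at 13.98 and 12.88 FPKM (-0.12, interval -0.26 to 0.02). PDK1 therefore gave 45.3% of the FPKM of these 3 kinases without Dox and 60.0% with Dox, and PDK3 gave 15.5% and 7.64%. Their summed FPKM was 35.68 and 39.80. PDK4, the kinase induced by fasting in other tissues and not among the 36, was listed at 0 counts in both libraries, which allows a level of up to 3 counts in each.

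The subunits of the complex had a median log2 ratio of -0.40, beside -1.02 for the 14 tested genes from hexokinase to pyruvate kinase. PDHA1, the subunit that the kinases phosphorylate, was listed at 196.57 and 177.32 FPKM (log2 ratio -0.15). PDHB, its partner in the same enzyme, was listed at 55.30 and 41.86 FPKM (-0.40), and DLAT, the acetyltransferase core, at 41.73 and 24.47 FPKM (-0.77). All 3 were lower with Dox by more than their counting error and none reached 2-fold. The ratio of PDK1 to PDHA1 was 0.082 without Dox and 0.13 with Dox.

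**Figure D3:**
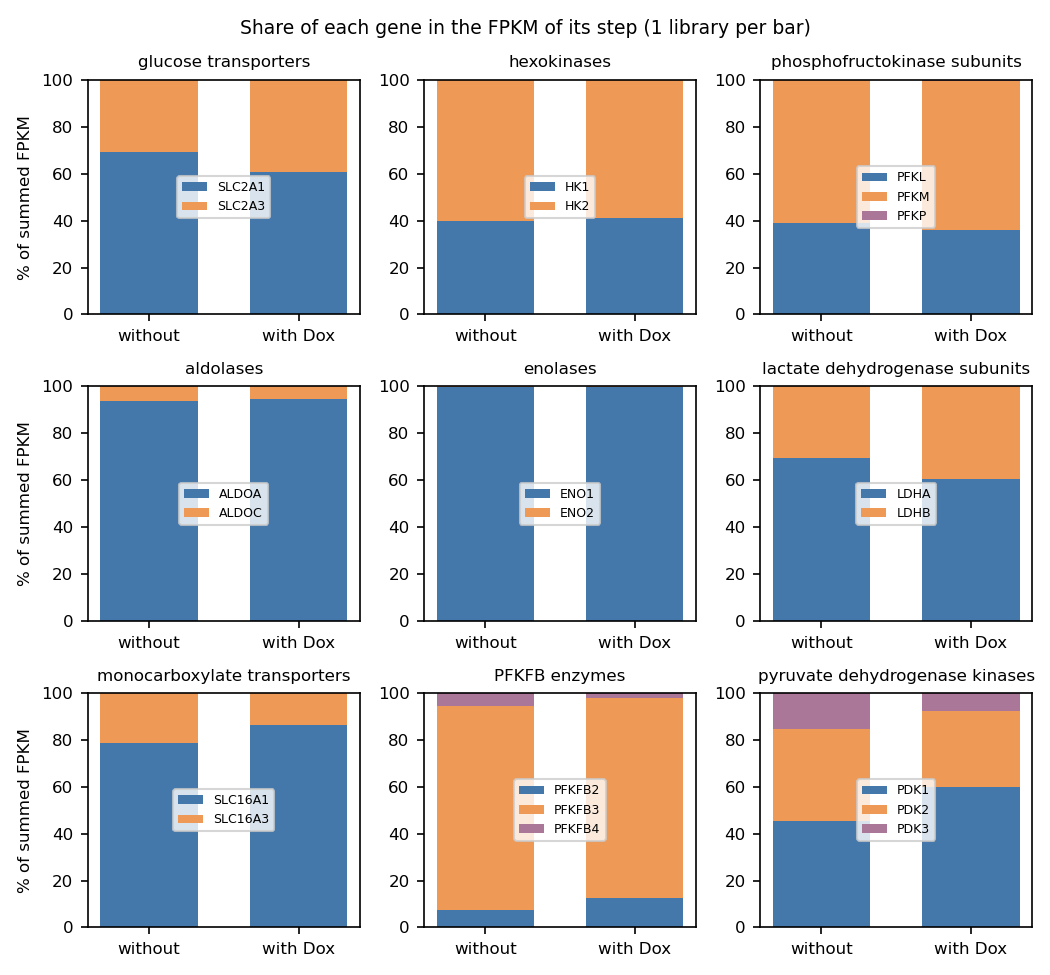
Share of each gene in the summed FPKM of its step, in percent, for 9 steps with several genes, with the library without Dox on the left and the library with Dox on the right. LDHB goes from 30.7% to 39.5%, PDK1 from 45.3% to 60.0% and SLC16A3 from 21.3% to 13.7%, while the hexokinases and aldolases keep nearly the same split.

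In the pentose phosphate pathway the genes did not move together. PGLS, the lactonase of the oxidative branch, was listed at 34.39 FPKM without Dox and 50.85 FPKM with Dox (log2 ratio 0.56, interval 0.46 to 0.67). PGD, which follows it and makes NADPH, was listed at 80.88 and 62.21 FPKM (-0.38). PGLS was thus higher with Dox while PGD was lower. In the branch that rearranges sugars without oxidation, the isomerase RPIA was listed at 29.19 and 19.83 FPKM (-0.56) and the epimerase RPE at 28.01 and 21.97 FPKM (-0.35). TKT, transketolase, was listed at 200.59 and 94.75 FPKM (-1.08), and TALDO1, transaldolase, at 142.41 and 135.08 FPKM (-0.08). The ratio of TKT to TALDO1 was 1.41 without Dox and 0.70 with Dox, so the more abundant of these RNAs was TKT without Dox and TALDO1 with Dox.

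A further measure that did not enter the selection is the mean transcript length of each gene, weighted by the transcripts its reads were assigned to. Among the 35 tested genes it differed by more than 10% between the libraries for 5, beside 18.1% of all tested genes, and the median absolute difference was 2.64% for these genes and 2.60% for all. The 5 genes were PFKFB4 (24.2% longer with Dox), PDK2 (20.4%), RPE (14.0%), PFKFB2 (11.5%) and PFKFB3 (-12.2%, from 3507.47 to 3078.48 bases). For PDK2 this turned the direction, since its counts, scaled to the library total (CPM), had a log2 ratio of 0.19, above 0, with 774 and 940 counts. For RPE, with 1935 and 1869 counts, the log2 ratio of CPM was -0.14. RPE shares 23.8% of its exon bases with KANSL1L on the opposite strand, which had 610 and 1340 counts. PDK2 shares 38.6% with SAMD14, also on the opposite strand, which had 6 and 12 counts. PFKM shares 8.58% with SENP1, which had 2286 and 3333 counts, PFKFB2 shares 3.09% with YOD1, which had 1083 and 1574 counts, and PDHA1 shares 21.3% with MAP3K15, which had 170 and 474 counts, all on the opposite strand. PGK1 shares 1.76% with ATP7A on the same strand, which had 1310 and 1775 counts. In all, 10 of the 36 genes share exon bases with another gene.

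**Figure D4:**
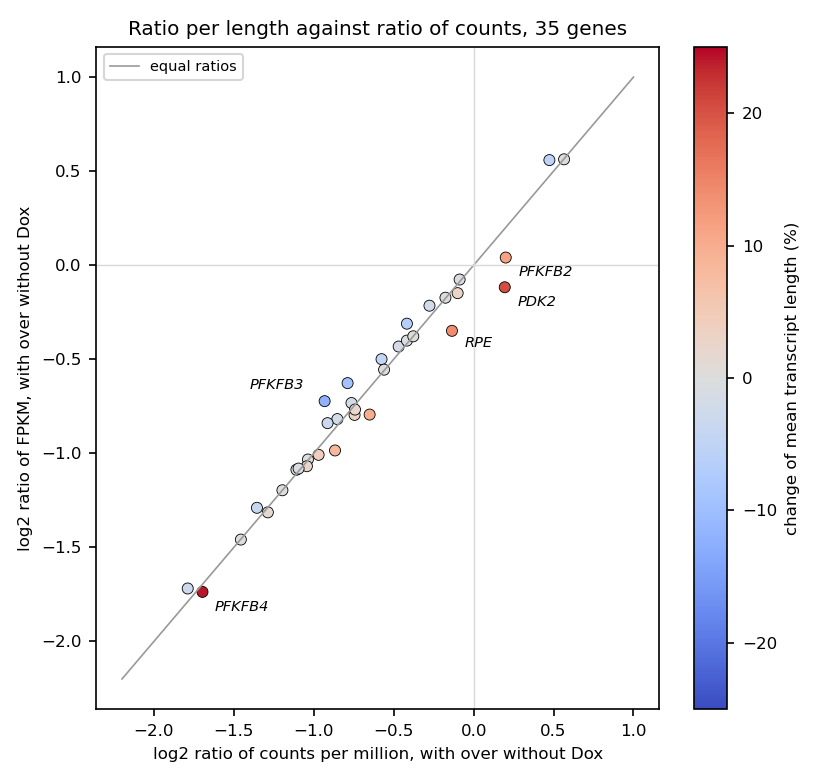
Log2 ratio of FPKM against log2 ratio of CPM for the 35 genes tested, coloured by the change of mean transcript length in percent, with the line of equal ratios and names for the 5 genes that differ by more than 10% in length. Most genes lie near the line, PDK2, RPE and PFKFB2 lie below it, and PFKFB3 and PFKM lie above it.

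Reads shared with near-identical copies touched these values little as the tables list them. Of the 36 genes 7 have pseudogenes named after them in the tables, 15 in all, and their counts came to at most 0.014% of a gene's own, for PGK1. Adding them moved no log2 ratio of counts by more than 0.0002, and how many pseudogene reads were assigned to the genes themselves was not tested.

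Other genes of the same pathways, listed with the 36, lay in both directions. Of 11 other glucose transporters 3 were tested, with a median of 0.06, and SLC2A11, a fructose and glucose carrier, was listed at 15.21 and 32.59 FPKM (log2 ratio 1.09). Of 21 other enzymes of glycolysis and gluconeogenesis 8 were tested, around a median of -0.09, with 6 below 0 and 2 above. Of the 8, 1 was more than 2-fold higher and 0 lower, where 17.0% and 6.41% of all tested genes were. The higher gene was PCK2, mitochondrial phosphoenolpyruvate carboxykinase, at 20.67 FPKM without Dox and 196.52 FPKM with Dox (3.24). Of 10 other genes of pyruvate entry 8 were tested, between -0.19 and 0.58 with a median of 0.12. Of 11 other pentose phosphate genes 9 were tested, around a median of 0.01, with 4 below 0 and 5 above. Of the 9, 1 was more than 2-fold higher and 0 lower, beside the same 17.0% and 6.41%. The higher one was under 5 FPKM in both libraries and reached 1 FPKM only with Dox. The 3 tested of 7 other lactate genes lay between -0.22 and 0.79, within 2-fold.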

How the data were processed

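RNA of ARP1 cells was sequenced by the study in 1 library without Dox and 1 with Dox, as poly(A) RNA in read pairs of 150 bases. The authors deposited, per gene and library, expected counts, which apportion reads that match several transcripts and were rounded here to whole numbers for intervals and scaling factors, TPM values and FPKM values, in the layout of RSEM. The deposited columns of transcript length in bases were used as they stand. The submitters' processing notes name Bowtie 0.12.2, HISAT2 2.1.0, StringTie 1.3.4d and hg19 without their roles. Of the transcripts listed, 99.1% are in GENCODE release 29, from which coordinates on GRCh38 were taken.

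Log2 ratios used FPKM plus 0.1 over genes with at least 1 FPKM in 1 library. With 1 library per group, edgeR, which the study names, cannot estimate a dispersion, so no test was run. Alternatives were the pseudocount, the filter, TPM, counts scaled to the library total (CPM), TMM factors (edgeR 4.0.16) and size factors (DESeq2 1.42.0) from genes with at least 10 counts. Python 3.11.15, pandas 2.3.3, scipy 1.17.1 and R 4.3.3 were used, and the ratio step was tested on simulated data. Of the other pathway lists, genes past 2-fold with at least 5 FPKM were named, and PDK4, HIF1A and MYC in any case, with 1 more gene that is not reported here. The members, lists and rules were chosen with earlier results of these data known. The 3 counts behind the stated limits and the intervals cover counting error only.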

Additional observations from a re-analysis of the deposited data

How the results depend on the processing

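No paired analysis was possible because there was 1 library per condition, and no library could be left out. Over 9 alternatives, the median log2 ratio of the pathway genes was -0.73 as reported, -0.69 with a pseudocount of 1 FPKM, -0.75 with at least 5 FPKM, -0.64 with TPM, -0.94 with TMM factors, -0.95 with DESeq2's size factors and -0.89 centred on all genes. The 11 genes more than 2-fold lower became 7 with a pseudocount of 1 FPKM and 6 with TPM. Of all tested genes 4.38% and 5.26% were more than 2-fold lower with these settings. Without a filter 1 gene, PFKP, was more than 2-fold higher, on 4 and 35 counts. The log2 ratio of SRD5A1 was 1.08 with TPM, 0.78 with TMM factors, 0.77 with size factors and 0.83 centred. Of the 35 genes 30 had a ratio below 0 under all settings that tested them, 3 (PFKFB2, PDK2 and TALDO1) changed sign and none past 2-fold did. TPM, TMM factors and size factors each rescale all values of a library by 1 factor, and centring takes 1 value from all ratios. The cause of the other shifts was not tested. With all genes that have a count, 4735 were more than 2-fold higher and 1897 lower, beside 2521 and 953 as reported. Depth limits ENO2, PFKFB4 and PFKP.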

Other observations

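Beyond the genes above, the tricarboxylic acid cycle and the regulators and targets linked to glycolysis gave further values. All 16 genes of the cycle were tested, with a median log2 ratio of -0.31 and a range from -0.86 to 0.16. Of these 14 lay below 0, beside 41.5% of all tested genes. None was past 2-fold, where 17.0% of all tested genes were higher and 6.41% lower. Of 7 genes of the hexosamine branch, which draws on fructose 6-phosphate, 6 were tested with a median of 0.16. GFPT1, its rate-limiting enzyme, was listed at 11.97 FPKM without Dox and 32.36 FPKM with Dox (1.43). Of the 6, GFPT1 alone was more than 2-fold higher and 0 were lower, where 17.0% and 6.41% of all tested genes were.

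Of 12 regulators of glycolytic transcription 9 were tested, with a median of 0.40. HIF1A was listed at 12.65 and 16.76 FPKM (log2 ratio 0.40) and MYC at 456.10 and 638.78 FPKM (0.49), both higher with Dox. MAX, the partner of MYC, was listed at 101.08 and 65.88 FPKM (-0.62), and MLX, the partner of MondoA, at 67.65 and 52.62 FPKM (-0.36), both named after their values were seen. ATF4, which drives the response to amino acid shortage, was listed at 406.22 and 1026.75 FPKM (1.34). Of 12 HIF-1 targets outside glycolysis 9 were tested, with a median of 0.51, 7 above 0 and 2 below. Of the 9, 2 were more than 2-fold higher and 0 lower, where 17.0% and 6.41% of all tested genes were. The higher ones were VEGFA, at 20.92 and 115.03 FPKM (2.45), and BNIP3L, a mitophagy receptor, at 7.11 and 18.51 FPKM (1.37). Protein levels, glucose uptake and lactate were not measured in these data, and what links these values was not tested.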
